A study of Mus musculus with 15 samples.

Results

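The genes described here encode the chaperones, folding enzymes and degradation factors of the endoplasmic reticulum (ER), together with a sensor, transcription factors and parts of the protein channel that belong to the same programme. They were taken from a list of 33 gene symbols that stands for the ATF6 and XBP1 arm of the unfolded protein response. All 33 had a row among the 55571 gene rows of the count table, and 31 had enough counts to be tested. RNA was sequenced from 5 groups of E0771 cells, a mouse mammary carcinoma line, with 3 libraries each. Cells of 4 groups expressed a form of Malt1, a scaffold and protease of the NF-kB pathway of lymphocytes: Malt1_V87R, Malt1_L88D, Malt1_PD or Malt1_WT, the wild type. The fifth group carried the Vector control. V87R and L88D each name a single amino acid substitution. The labels do not spell out PD, and the table heads the columns taken for Malt1_PD with the substitution C461A. No treatment and no coculture was labelled. The labels do not say whether a group was a clone or a pool, what drove the constructs, or whether the 3 libraries of a group came from separate cultures. The p-values therefore cover no more than the variation among these libraries, part or all of which may be technical.

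The unfolded protein response matches the folding capacity of the ER to its load. When unfolded proteins draw the chaperone BiP away from the ER membrane sensors, ATF6 moves to the Golgi, where proteases release a transcription factor from it, and IRE1, the product of Ern1, splices Xbp1 messenger RNA so that it encodes an active transcription factor. Both factors act on genes for chaperones, disulfide isomerases, the translocation channel and ER-associated degradation (ERAD), the route by which misfolded proteins are drawn back into the cytosol and destroyed. Secretory cells such as plasma cells rely on this programme, and carcinoma cells use it as well.

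The DNA elements through which ATF6 and XBP1 are known to act were searched in the promoters of the 33 genes. The list was chosen to stand for the arm of these same factors. The shares below therefore describe the list and are no independent evidence about it. A RefSeq promoter window of build GRCm38.p6, from 250 bases before to 50 bases after the annotated start, was matched by symbol for 27 of the 33 genes. Hyou1, Hspa13, Manf, Derl1, Atf6 and Sec61a1 had no window in the table. The ER stress response element (ERSE, which is CCAAT, 9 bases of any kind and CCACG, on either strand) was present in the windows of 9 of 27 genes (33.3%), against 0.137% of the 27025 genes with a window. ERSE-II (ATTGG, 1 base of any kind and CCACG) was present in 2 of 27 (7.41%), against 0.0444%, and the unfolded protein response element (UPRE, TGACGTGG) in 1 of 27 (3.7%), against 0.714%. CCACG, which forms one end of ERSE and ERSE-II and so overlaps every match to them, was found in 23 of 27 windows (85.2%), against 35.5%. In all, 12 of the 27 genes carried an ERSE, ERSE-II or UPRE and 15 carried none. The 13 matched elements are shown so that their letters and places can be compared between the genes that carry them. Each is written 5′ to 3′ in the direction of the motif, and capitals mark the fixed letters of the motif.
Hspa5, chr2:34772025-34772043: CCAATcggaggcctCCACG
Hsp90b1, chr10:86705638-86705656: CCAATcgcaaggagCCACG
Hsp90b1, chr10:86705533-86705551: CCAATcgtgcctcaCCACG
Dnajc3, chr14:118937827-118937845: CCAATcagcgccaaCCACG
Pdia6, chr12:17266491-17266509: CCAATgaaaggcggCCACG
Calr, chr8:84847075-84847093: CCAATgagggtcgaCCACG
Canx, chr11:50325800-50325818: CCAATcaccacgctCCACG
Creld2, chr15:88819520-88819538: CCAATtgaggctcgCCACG
Syvn1, chr19:6046532-6046550: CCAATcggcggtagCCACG
Derl3, chr10:75893242-75893260: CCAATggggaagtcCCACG
Dnajb11, chr16:22857852-22857862: ATTGGcCCACG
Herpud1, chr8:94386377-94386387: ATTGGgCCACG
Sec24d, chr3:123267470-123267477: TGACGTGG
The elements of Hspa5 and Dnajb11 and the UPRE of Sec24d lie in exonic UTR of their own gene in the GENCODE annotation, and the other 10 lie outside their own gene. That of Herpud1 lies in an intron of Gm15890. These are matches of letters in a window and not measured binding sites. Only exact matches within the window were searched, so a gene without a match may still have an element.

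The 250 bases before the start of Creld2 and of Herpud1 are shown as complete examples of the same elements in place, because both genes were among those with the larger differences between groups. Both are on the plus strand of GRCm38.p6, and capitals mark the ERSE, which in Creld2 runs on the opposite strand, and the ERSE-II.
Creld2, chr15:88819396-88819645: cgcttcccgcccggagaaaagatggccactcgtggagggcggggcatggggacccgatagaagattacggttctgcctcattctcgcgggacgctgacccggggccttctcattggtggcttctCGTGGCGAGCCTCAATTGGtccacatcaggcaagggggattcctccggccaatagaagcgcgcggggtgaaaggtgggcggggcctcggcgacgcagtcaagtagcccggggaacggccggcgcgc
Herpud1, chr8:94386179-94386428: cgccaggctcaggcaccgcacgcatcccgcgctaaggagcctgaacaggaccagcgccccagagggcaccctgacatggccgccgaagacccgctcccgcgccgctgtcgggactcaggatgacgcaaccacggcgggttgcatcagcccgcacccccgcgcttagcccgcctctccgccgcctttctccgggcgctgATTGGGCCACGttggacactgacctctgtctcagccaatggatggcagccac
The ERSE of Creld2 covered positions -126 to -108 from the start, and the ERSE-II of Herpud1 positions -52 to -42.

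Libraries held 15471746 to 21458457 counts. Malt1 itself was at 278.57 to 281.03 CPM (counts scaled to the total of each library) in Malt1_V87R, 244.66 to 258.13 CPM in Malt1_L88D, 242.64 to 259.7 CPM in Malt1_PD, 192.79 to 207.48 CPM in Malt1_WT and 26.412 to 30.2 CPM in Vector libraries, so that every library labelled with a construct lay above every Vector library. The counts do not tell the cells' own Malt1 from the introduced one. Replicates differed most between Malt1_PD replicates 1 and 2 and between Vector replicates 1 and 2, with a chi-square per degree of freedom of 8.34 and 6.71, against 1.91 to 5.81 for the other pairs within a group. The 7 mammary epithelial markers averaged 98.1 CPM in Malt1_V87R, 103.3 CPM in Malt1_L88D, 122.1 CPM in Malt1_PD, 96.5 CPM in Malt1_WT and 127.5 CPM with Vector in sum. Of the 2 tested, 2 were lower than with Vector in Malt1_V87R, Malt1_L88D and Malt1_WT and 1 in Malt1_PD. In these comparisons 4.7%, 8.43%, 27.7% and 22% of all genes were lower. Of these markers Krt8 had 86.2 to 122 CPM and Epcam 5.1 to 10.5 CPM. Krt5 and Krt19 had at most 2 counts in any library, Krt14 at most 6, Krt18 at most 9 and Cdh1 1 to 11. The 7 fibroblast markers summed to 383.7 to 407.76 CPM in Malt1_V87R and 387.45 to 396.03 CPM in Malt1_L88D. Their sum was 443.81 to 465.66 CPM in Malt1_PD, 393.39 to 401.46 CPM in Malt1_WT and 401.93 to 432.32 CPM with Vector. Pdgfra (118 to 180 CPM), Col3a1 (114 to 142 CPM) and Pdgfrb (89 to 126 CPM) were the largest of them. Of the 6 tested, 2 were higher and 4 lower than with Vector in Malt1_WT, and 1 higher and 1 lower in Malt1_PD. In Malt1_V87R 0 were higher and 0 lower, and in Malt1_L88D 0 higher and 2 lower. Of all genes, 27.2%, 22.8%, 7.01% and 8.96% were higher in these 4 comparisons. The 1 tested of 8 T and NK markers was higher in Malt1_WT. Among plasma and B cell markers, Jchain, Tnfrsf17 and Ms4a1 had at most 1 count in any library, Mzb1 at most 5, Cd79a at most 10 and Pou2af1 3 to 38 (up to 2.02 CPM), while Sdc1, which epithelial cells express too, had 1200 to 1350 CPM.

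The 12 macrophage and dendritic markers summed to 26.929 to 31.32 CPM in Malt1_V87R, 31.715 to 52.652 CPM in Malt1_L88D, 65.095 to 69.221 CPM in Malt1_PD, 60.978 to 67.294 CPM in Malt1_WT and 28.686 to 31.432 CPM in Vector libraries. Of the 8 tested, 0 were higher than with Vector in Malt1_V87R, 3 in Malt1_L88D, 8 in Malt1_PD and 5 in Malt1_WT, and 0 were lower in each, while 7.01%, 8.96%, 22.8% and 27.2% of all genes were higher in those 4 comparisons. The macrophage and dendritic markers thus moved in the same direction as the ER genes in Malt1_PD and Malt1_WT, and some were also higher in Malt1_L88D. The 5 endothelial markers averaged 10.7 CPM in Malt1_V87R, 11.3 CPM in Malt1_L88D, 15.1 CPM in Malt1_PD, 14.2 CPM in Malt1_WT and 12.0 CPM with Vector in sum, with 1 of the 2 tested higher in Malt1_PD and in Malt1_WT. Pecam1 made up most of that sum, and Kdr, Tek and Emcn had at most 6 counts in any library. Most of the macrophage and dendritic sum came from Cd14, Cd68 and Lyz2. Itgax had 32 to 83 counts in any library (1.81 to 4.77 CPM), Csf1r 8 to 58, Mrc1 7 to 56 and Adgre1 1 to 22. The defining leukocyte gene Ptprc had 0 to 5 counts, Fcgr1 0 to 3, C1qa 0 to 6, C1qb 0 to 16 and C1qc 0 to 10. The 33 ER genes summed to 9009.2 to 15601 CPM in the group means. In bulk RNA, a change in the number of cells of a type and a change in RNA per cell cannot be told apart, and the part of the markers in the results below was not tested.

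Cells with Malt1_PD and cells with Malt1_WT held more messenger RNA of nearly every ER gene of the list than cells with Vector, and more with Malt1_PD than with Malt1_WT for most, whereas cells with Malt1_V87R or Malt1_L88D stayed near the Vector level. Summed over the 33 genes, the level was 9350 ± 122 CPM in Malt1_V87R, 9009 ± 118 CPM in Malt1_L88D, 15601 ± 101 CPM in Malt1_PD, 13649 ± 343 CPM in Malt1_WT and 9177 ± 90.9 CPM with Vector (SD, n = 3 each, as for all means below). The Malt1_PD sum was 1.70 times and the Malt1_WT sum 1.49 times the Vector sum, and those of Malt1_V87R and Malt1_L88D 1.02 and 0.982 times. The mean was highest in Malt1_PD for 29 of the 31 tested genes and in Malt1_WT for Ern1 and Sec24d.

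**Figure D1:**
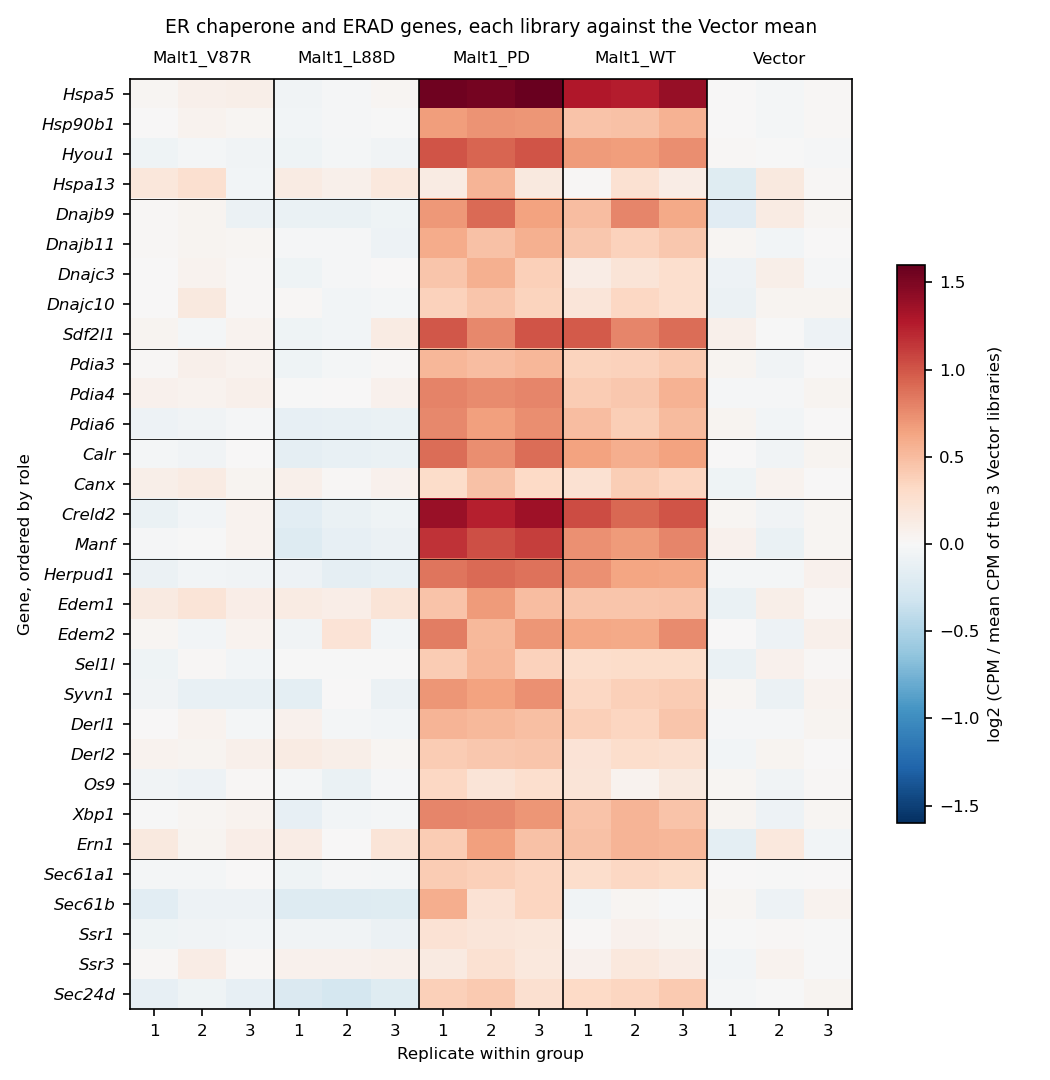
Level of the 31 tested ER genes in each of the 15 libraries, as log2 of the ratio of CPM to the mean CPM of the 3 Vector libraries; rows are genes ordered by role with lines between roles, columns are libraries by group. The Malt1_PD and Malt1_WT libraries are red in nearly every row, with Hspa5 the deepest, and the Malt1_V87R and Malt1_L88D libraries are close to white, as the Vector libraries are.

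Each gene was tested with edgeR's quasi-likelihood test, fitted to all genes and libraries, and called at a Benjamini-Hochberg adjusted p under 0.05 over the 14571 genes tested. With Malt1_PD against Vector, 30 of the 31 genes rose and 0 fell, while 22.8% of all genes tested were higher and 22% lower. The median log2 fold change of the 31 was 0.55, and that of all genes 0.00. With Malt1_WT against Vector, 28 rose and 0 fell, while 27.2% of all genes were higher and 27.7% lower, with a median of 0.41 against -0.01 for all genes. At an unadjusted p under 0.05, 31 genes were higher and 0 lower in Malt1_PD and 28 higher and 0 lower in Malt1_WT, while 50.8% and 59.1% of all genes passed in either direction. DESeq2 and limma-voom called 0 lower in both. The 3 Malt1_PD libraries all lay above the 3 Vector libraries for 30 genes, as they did for 24.8% of all genes, and the 3 Malt1_WT libraries did so for 29, against 29.2% of all genes. Both comparisons share the Vector libraries. A rise of at least 2-fold was reached by 3 genes with Malt1_PD (5.32% of all genes) and by 1 with Malt1_WT (7.85%).

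**Figure D2:**
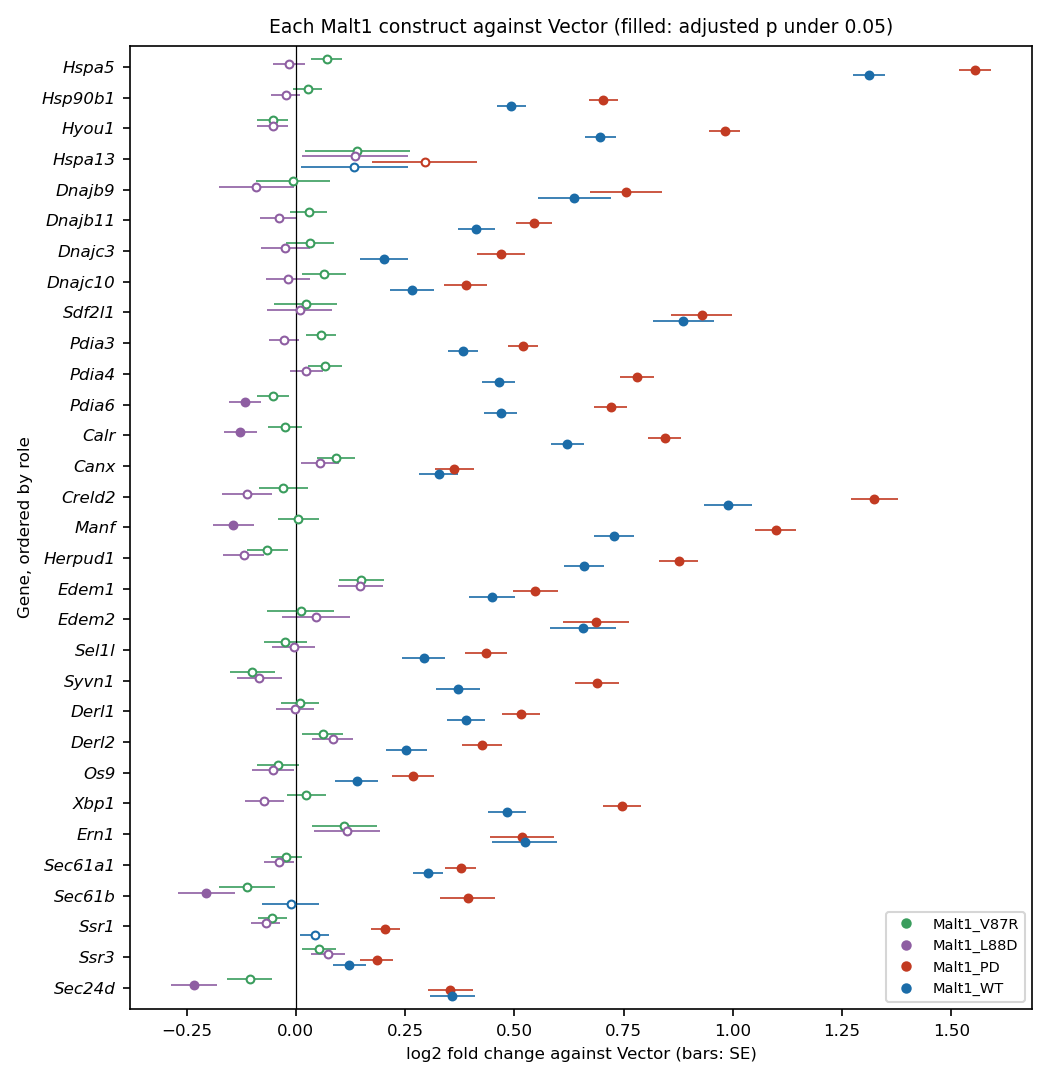
Log2 fold change of each tested ER gene against Vector in Malt1_V87R, Malt1_L88D, Malt1_PD and Malt1_WT cells (edgeR; points are estimates, bars the standard error, filled points have an adjusted p under 0.05), with genes ordered by role. Malt1_PD and Malt1_WT points reach 1.55 and 1.31 for Hspa5, while the Malt1_V87R and Malt1_L88D points lie between -0.23 and 0.15.

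Hspa5 encodes BiP, the ER member of the Hsp70 family that binds unfolded chains and holds the stress sensors inactive. It had 1199, 1246 and 1259 CPM in Malt1_V87R, 1128, 1162 and 1200 CPM in Malt1_L88D, 3457, 3386 and 3515 CPM in Malt1_PD, 2867, 2799 and 3084 CPM in Malt1_WT, and 1186, 1153 and 1189 CPM in Vector libraries. Every Malt1_PD library lay above every Malt1_WT library, and these above all others. The rise was 2.94-fold in Malt1_PD (log2 fold change 1.55 ± 0.04 SE, edgeR adjusted p = 2.6e-23) and 2.48-fold in Malt1_WT (1.31 ± 0.04, adjusted p = 3.8e-22) against Vector. Per kilobase of exon, Hspa5 was the most abundant of the 33 in Malt1_PD at 816 ± 15.2 RPKM (CPM divided by exonic length in kilobases) and in Malt1_WT at 690 ± 35.2 RPKM, while with Vector it was at 278 RPKM, below Calr at 338 RPKM and Pdia3 at 285 RPKM.

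Hsp90b1 encodes GRP94, the Hsp90 of the ER, and rose 1.63-fold in Malt1_PD and 1.41-fold in Malt1_WT, to 1702 ± 30.0 CPM in Malt1_PD and 1471 ± 55.6 CPM in Malt1_WT, against 1045 ± 19.2 CPM with Vector. Exons that cover 10.3% of its exonic length belong to 1810014B01Rik on the opposite strand. Hyou1, a large Hsp70-like protein that exchanges the nucleotide of BiP, was at 516, 489 and 518 CPM in Malt1_PD, 413, 407 and 430 CPM in Malt1_WT and 260, 257 and 255 CPM in Vector libraries. These 3 groups did not overlap, and Hyou1 rose 1.97-fold in Malt1_PD and 1.62-fold in Malt1_WT. Hspa13, a small microsomal relative of BiP, was the exception of this group. It had 89.1, 94.1 and 76.8 CPM in Malt1_V87R, 86.7, 83.6 and 88.9 CPM in Malt1_L88D, 86.7, 115 and 88.2 CPM in Malt1_PD, 80.1, 93.1 and 85.6 CPM in Malt1_WT, and 69.1, 87.7 and 79.9 CPM in Vector libraries. The groups overlapped, and the log2 fold change against Vector was 0.29 in Malt1_PD (95% interval 0.03 to 0.56, edgeR adjusted p = 0.068) and 0.13 in Malt1_WT (-0.13 to 0.40, adjusted p = 0.39). With all libraries, Hspa13 was called in Malt1_PD by DESeq2 (adjusted p = 0.012) and by edgeR with the replicate block (0.016). The edgeR call was also made without Malt1_PD replicate 1 (adjusted p = 0.036) or 3 (0.041), or without Vector replicate 2 (0.038).

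J proteins hand clients to BiP and start its ATPase cycle. All 5 genes of this group, 4 J proteins and Sdf2l1, which works with them, rose in both Malt1_PD and Malt1_WT against Vector. Sdf2l1 had the largest rise of the group, with 62.4, 53.7 and 63.4 CPM in Malt1_PD, 62.2, 54.1 and 58.4 CPM in Malt1_WT and 33.1, 31.4 and 29.8 CPM in Vector libraries. The Malt1_PD and Malt1_WT libraries overlapped each other and lay above all Vector libraries, with rises of 1.90-fold and 1.85-fold. Dnajb9, which guides clients to ERAD and helps BiP to hold IRE1 inactive, was at 104, 120.1 and 101 CPM in Malt1_PD, 90.5, 111 and 97.8 CPM in Malt1_WT and 56.6, 70.3 and 66.0 CPM in Vector libraries (1.69-fold and 1.56-fold). Dnajb11 rose 1.46-fold in Malt1_PD and 1.33-fold in Malt1_WT. Dnajc3, also known as an inhibitor of the kinase PERK, rose 1.38-fold in Malt1_PD and 1.15-fold in Malt1_WT, and Dnajc10, a J protein with reductase activity, 1.31-fold and 1.20-fold.

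Protein disulfide isomerases form and reshuffle the disulfide bonds of new proteins, and Pdia3, Pdia4 and Pdia6 all rose. Pdia4 was at 352, 348 and 353 CPM in Malt1_V87R, 333, 336 and 352 CPM in Malt1_L88D, 583, 568 and 576 CPM in Malt1_PD, 444, 451 and 491 CPM in Malt1_WT and 329.5, 329.9 and 346 CPM in Vector libraries. Malt1_PD, Malt1_WT and Vector libraries formed 3 separate ranges, and the rises were 1.72-fold in Malt1_PD and 1.38-fold in Malt1_WT. Pdia6 rose 1.65-fold and 1.38-fold, to 1239 ± 49.5 CPM in Malt1_PD and 1040.2 ± 42.9 CPM in Malt1_WT, against 752 ± 22.7 CPM with Vector. Pdia3, which folds glycoproteins together with the lectin chaperones, rose 1.43-fold and 1.30-fold.

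Calreticulin (Calr) and calnexin (Canx) hold glycoproteins by their sugar chains while they fold. Calr was at 955, 939.8 and 978 CPM in Malt1_V87R, 879.6, 894 and 903 CPM in Malt1_L88D, 1811, 1627 and 1806 CPM in Malt1_PD, 1518, 1452 and 1526 CPM in Malt1_WT and 978, 941 and 1004 CPM in Vector libraries. Malt1_PD lay above Malt1_WT, and both above the other 3 groups, with rises over Vector of 1.79-fold and 1.54-fold. Canx rose less, by 1.29-fold in Malt1_PD and 1.255-fold in Malt1_WT, to 1259.5 ± 85.4 CPM in Malt1_PD and 1229 ± 62.2 CPM in Malt1_WT, against 979.7 ± 43.7 CPM with Vector.

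Creld2 and Manf encode small proteins that are kept in the ER and released from the cell under ER stress, and in Malt1_PD their rises came next in size after that of Hspa5. Creld2 had 42.7, 44.6 and 47.6 CPM in Malt1_V87R, 40.8, 42.8 and 43.8 CPM in Malt1_L88D, 119, 108 and 117 CPM in Malt1_PD, 94.5, 86.8 and 92.2 CPM in Malt1_WT, and 46.8, 44.0 and 46.8 CPM in Vector libraries. It rose 2.50-fold in Malt1_PD (log2 fold change 1.32 ± 0.05 SE, edgeR adjusted p = 4e-18) and 1.99-fold in Malt1_WT (0.99 ± 0.05, adjusted p = 3e-15). Manf had 128, 129.8 and 135 CPM in Malt1_V87R, 113, 119 and 122 CPM in Malt1_L88D, 291, 267 and 281 CPM in Malt1_PD, 216, 209 and 224 CPM in Malt1_WT, and 137, 121 and 133 CPM in Vector libraries. Malt1_PD, Malt1_WT and Vector again formed 3 separate ranges for both genes, and Manf rose 2.14-fold in Malt1_PD and 1.66-fold in Malt1_WT. Exons of other genes on the opposite strand, Dcaf1 and 4930524O07Rik, cover 4.14% and 4.71% of the exonic length of Manf.

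**Figure D3:**
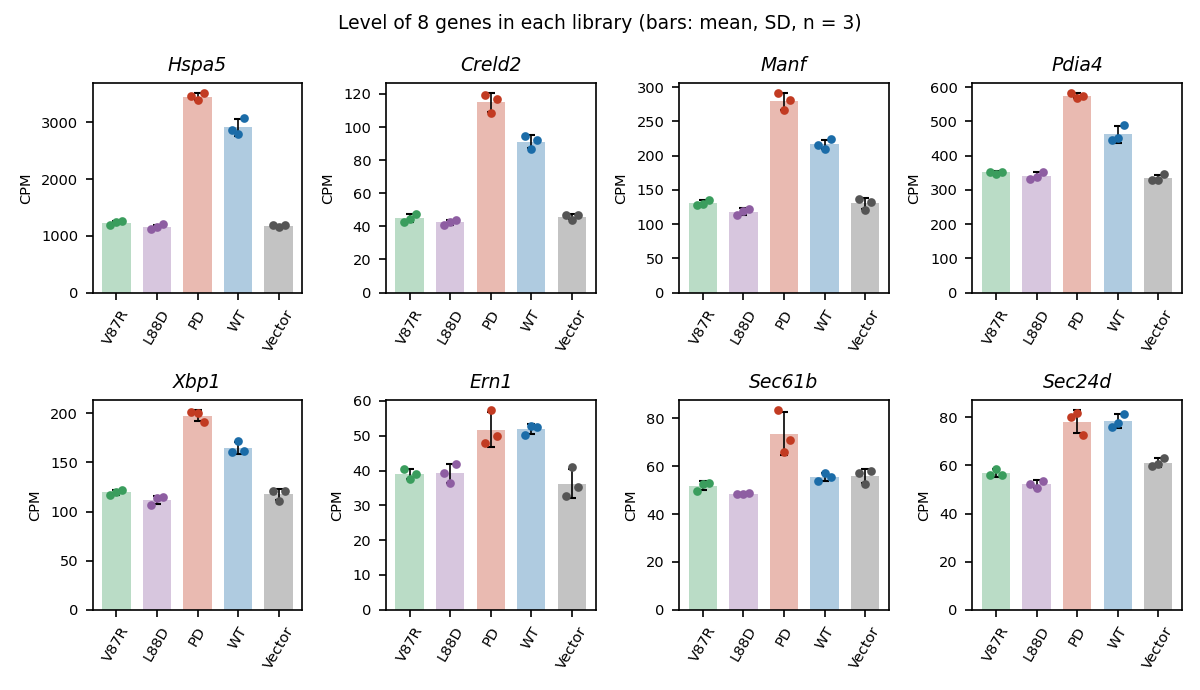
Level of 8 of the genes in CPM in each library (points), with the mean as a bar and the SD over 3 libraries as an error bar, by group. Hspa5, Creld2, Manf, Pdia4 and Xbp1 are highest in Malt1_PD, next in Malt1_WT and lower in the other 3 groups; Ern1 and Sec24d are alike in Malt1_PD and Malt1_WT; Sec61b is above Vector in Malt1_PD and at the Vector level in Malt1_WT.

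All 8 tested ERAD genes rose in Malt1_PD and in Malt1_WT against Vector. Herpud1, a membrane protein that organises the retrotranslocation complex, was at 65.8, 68.5 and 67.5 CPM in Malt1_V87R, 66.3, 63.5 and 64.5 CPM in Malt1_L88D, 128, 132 and 128 CPM in Malt1_PD, 116, 109 and 108 CPM in Malt1_WT and 68.7, 68.6 and 73.7 CPM in Vector libraries. Its Malt1_PD and Malt1_WT libraries lay apart from each other and above all others, and it rose 1.84-fold and 1.58-fold. Syvn1, the ubiquitin ligase HRD1 through which many clients leave the ER, was at 120.2, 115 and 123 CPM in Malt1_PD, 92.7, 96.6 and 98.0 CPM in Malt1_WT and 75.9, 69.2 and 76.7 CPM in Vector libraries. That is a rise of 1.61-fold in Malt1_PD and of 1.29-fold in Malt1_WT. Sel1l, the partner of Syvn1, rose 1.35-fold and 1.22-fold.

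Edem1 and Edem2 take part in trimming the mannose residues that mark a glycoprotein for degradation. Edem2 rose 1.61-fold in Malt1_PD and 1.58-fold in Malt1_WT, to 55.5 ± 5.68 CPM in Malt1_PD and 54.4 ± 3.34 CPM in Malt1_WT, against 34.4 ± 1.98 CPM with Vector. Edem1 rose 1.46-fold and 1.36-fold. The derlins form part of the membrane channel: Derl1 rose 1.43-fold and 1.31-fold, and Derl2 1.34-fold and 1.19-fold. Derl3, the derlin of secretory tissues, had 1 to 10 counts in any library (0.0464 to 0.476 CPM, where 3 counts correspond to 0.139 to 0.196 CPM) and was not tested. Os9, a lectin that delivers clients to the ligase, had the smallest rises of the ERAD genes, 1.20-fold in Malt1_PD and 1.10-fold in Malt1_WT. The Malt1_WT call of Os9 (edgeR adjusted p = 0.017) was lost without Malt1_WT replicate 1 (adjusted p = 0.074) or Vector replicate 2 (0.058).

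Among sensors and transcription factors, Xbp1 rose 1.68-fold in Malt1_PD and 1.40-fold in Malt1_WT. It was at 117, 119.8 and 122 CPM in Malt1_V87R, 107, 114 and 115 CPM in Malt1_L88D, 201, 200.2 and 191 CPM in Malt1_PD, 161, 171 and 161 CPM in Malt1_WT and 121, 111 and 121 CPM in Vector libraries. Malt1_PD lay above Malt1_WT in every library, and both above the rest. Counts per gene do not show how much of the Xbp1 message was spliced. Ern1 was at 40.5, 37.5 and 39.0 CPM in Malt1_V87R, 39.2, 36.5 and 42.0 CPM in Malt1_L88D, 47.9, 57.3 and 50.04 CPM in Malt1_PD, 50.3, 52.9 and 52.6 CPM in Malt1_WT and 32.7, 40.9 and 35.3 CPM in Vector libraries. It rose 1.43-fold in Malt1_PD and 1.44-fold in Malt1_WT, with overlapping libraries between both constructs, and at 6.33 RPKM in Malt1_PD it was the least abundant tested gene per kilobase. Atf6 had 3 to 11 counts in any library (0.147 to 0.65 CPM) and was not tested, while its relative Atf6b had 1853 to 2623 counts. Whether the low Atf6 value reflects the level of the message or the way its reads were counted was not tested, so it is not a measure of how much Atf6 these cells express.

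The 5 genes of translocation and export summed to 1.18 times the Vector level in Malt1_PD and 1.10 times in Malt1_WT, the lowest ratios of the roles. Sec61a1, the pore of the translocation channel, rose 1.30-fold in Malt1_PD and 1.23-fold in Malt1_WT. A gene on its opposite strand, Gm44170, covers 8.16% of its exonic length. Ssr3, a subunit of the translocon-associated protein complex, rose 1.14-fold and 1.09-fold, and Sec24d, which selects cargo for COPII vesicles, 1.28-fold in both. Sec61b, a small subunit of the channel, had 49.6, 52.7 and 53.0 CPM in Malt1_V87R, 48.2, 48.6 and 48.9 CPM in Malt1_L88D, 83.3, 65.9 and 71.0 CPM in Malt1_PD, 53.8, 57.2 and 55.5 CPM in Malt1_WT, and 57.0, 52.7 and 58.0 CPM in Vector libraries. Its Malt1_PD libraries lay above all others (1.31-fold over Vector), and its Malt1_WT libraries overlapped those with Vector (log2 fold change -0.01, 95% interval -0.14 to 0.12, edgeR adjusted p = 0.9). Ssr1, another subunit of the translocon-associated complex, rose 1.15-fold in Malt1_PD, while the log2 fold change in Malt1_WT was 0.04 (-0.02 to 0.11, adjusted p = 0.28).

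The 10 tested genes with an ERSE or ERSE-II in the promoter window and the 16 tested genes with a window and neither element were set side by side. All 10 with an element rose in Malt1_PD against Vector, with log2 fold changes of 0.36 to 1.55 and a median of 0.71, and so did all 16 without, with 0.19 to 0.93 and a median of 0.48. In Malt1_WT against Vector, 10 of 10 and 14 of 16 rose, with medians of 0.48 and 0.37. Hspa5, Creld2 and Herpud1 had a match in the window, and Sdf2l1, Xbp1, Edem2 and Pdia4 had none. Between Malt1_PD and Malt1_WT, 9 of 10 with an element and 7 of 16 without were higher in Malt1_PD, with medians of 0.23 and 0.13. Of all genes, 12.6% were higher there. The ranges of both sets overlapped in each comparison, and no difference between them was tested.

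Malt1_PD was then set against Malt1_WT. Of the 31 genes, 19 were higher in Malt1_PD and 0 lower (edgeR, adjusted p under 0.05), while 12.6% of all genes were higher and 10.7% lower. DESeq2 and limma-voom called 0 lower, and none was lower at an unadjusted p under 0.05, which 33.8% of all genes passed in either direction. The median log2 fold change was 0.16, against 0.01 for all genes, and the 3 Malt1_PD libraries lay above the 3 Malt1_WT libraries for 22 genes, as for 17.8% of all genes. The largest difference was in Sec61b (1.32-fold, log2 fold change 0.40 ± 0.06 SE, adjusted p = 2.3e-05), followed by Manf (1.29-fold, 0.37 ± 0.05, adjusted p = 4.5e-07), Creld2 (1.26-fold), Syvn1 (1.247-fold) and Pdia4 (1.245-fold). Hspa5 was 1.18-fold higher (0.24 ± 0.04, adjusted p = 9e-06), Hyou1 1.22-fold and Xbp1 1.20-fold. By role, 3 of 4 genes of the BiP group were higher, 2 of 5 J protein genes, 3 of 3 isomerases, 1 of 2 lectins, both secreted proteins, 5 of 8 tested ERAD genes, 1 of 2 tested sensors and factors, and 2 of 5 genes of translocation and export.

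The 12 genes not called between Malt1_PD and Malt1_WT were Hspa13, Dnajb9, Dnajc10, Sdf2l1, Canx, Edem1, Edem2, Os9, Ern1, Sec61a1, Ssr3 and Sec24d. Their log2 fold changes ran from -0.01 to 0.16. The 95% intervals of those near 0 were -0.15 to 0.14 for Ern1, -0.11 to 0.10 for Sec24d, -0.12 to 0.18 for Edem2 and -0.09 to 0.18 for Sdf2l1, so that differences of that size remain possible. Several calls close to the threshold changed with the library left out or with the setting. That of Derl1 (edgeR adjusted p = 0.032) was lost when Malt1_PD replicate 1, 2 or 3 or Malt1_WT replicate 1 or 2 was left out (adjusted p of 0.14, 0.052, 0.0565, 0.092 and 0.19). That of Dnajb11 was lost without Malt1_PD replicate 1 (0.12) or 3 (0.11) or Malt1_WT replicate 2 (0.14). That of Sel1l was lost without Malt1_PD replicate 2 (0.2) or Malt1_WT replicate 1, 2 or 3 (0.089, 0.088 and 0.091), and Os9 (adjusted p = 0.052) was called without Malt1_PD replicate 2 (0.023) or Malt1_WT replicate 1 (0.037). With all libraries of both groups kept, Derl1, Dnajb11 and Sel1l lost the call with upper-quartile scaling (adjusted p of 0.081, 0.064 and 0.063) and with only the 6 libraries compared (0.097, 0.081 and 0.094). Dnajc10 and Os9 were called with the replicate block (0.032 and 0.015) and without the filter on low counts (0.049 and 0.033).

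**Figure D4:**
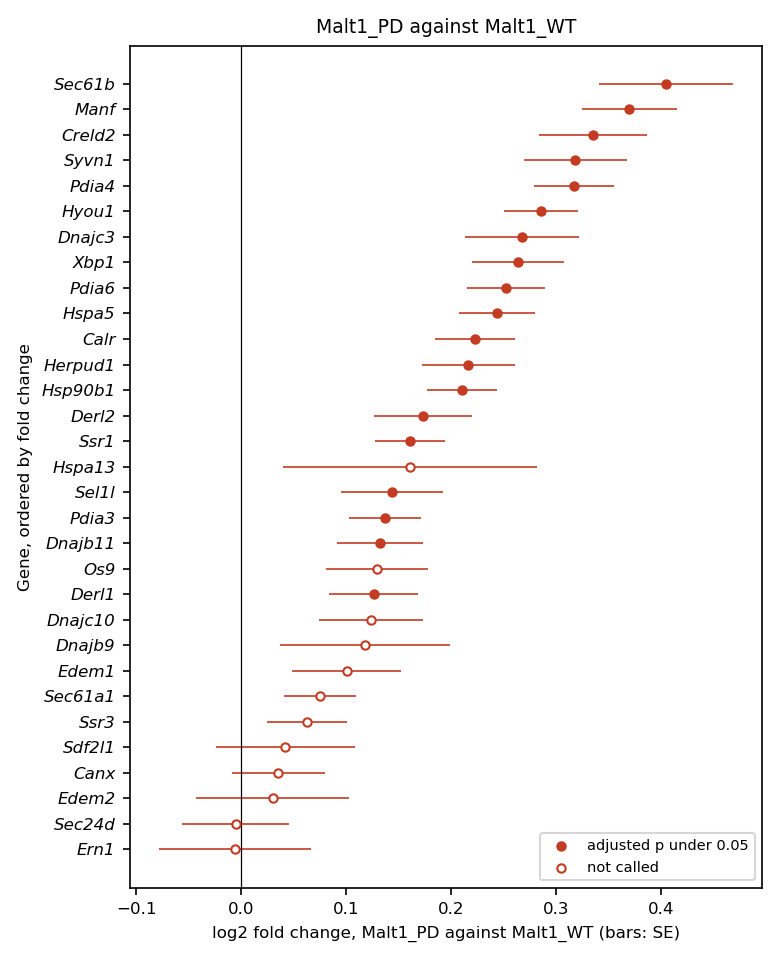
Log2 fold change of the 31 tested ER genes in Malt1_PD against Malt1_WT (edgeR; bars are the standard error; filled points have an adjusted p under 0.05), ordered by size. The 19 filled points run up to 0.40 for Sec61b, and Ern1 and Sec24d lie at -0.01.

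In Malt1_V87R cells 0 of the 31 genes were called higher and 0 lower than with Vector (edgeR), while 7.01% of all genes were higher and 4.7% lower. DESeq2 and limma-voom called none of the 31 either, and at an unadjusted p under 0.05 there were 2 higher, Canx and Edem1, and 0 lower, with 23.9% of all genes passing in either direction. The log2 fold changes lay between -0.11 and 0.15 with a median of 0.01, and all 95% intervals lay between -0.24 (Sec61b) and 0.40 (Hspa13). Hspa5 had a log2 fold change of 0.07 (interval -0.00 to 0.14), with its 3 Malt1_V87R libraries just above the 3 Vector libraries. The libraries of both groups lay apart for 4 genes above and 4 below Vector, where 13.5% and 14.2% of all genes did so. Edem1 was closest to a call, at 187, 196 and 183 CPM in Malt1_V87R and 157, 181 and 172 CPM in Vector libraries (1.11-fold, edgeR adjusted p = 0.063). Without Vector replicate 2 it was called (adjusted p = 0.017), which made the count 1 higher.

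In Malt1_L88D cells 0 of the 31 genes were higher and 5 lower than with Vector, while 8.96% of all genes were higher and 8.43% lower. At an unadjusted p under 0.05 there were 1 higher, Edem1, and 7 lower, with 29.9% of all genes passing in either direction, and DESeq2 and limma-voom called none higher. The 5 that fell were Sec24d (0.851-fold, edgeR adjusted p = 0.0024), Sec61b (0.868-fold, 0.029), Manf (0.906-fold, 0.035), Calr (0.916-fold, 0.022) and Pdia6 (0.922-fold, 0.028). Sec24d had 52.3, 50.4 and 53.7 CPM in Malt1_L88D against 59.7, 60.8 and 63.2 CPM in Vector libraries, with no overlap. The groups lay apart for 2 genes above and 9 below Vector, as for 16.1% and 18.3% of all genes. Leaving out any of the 3 Malt1_L88D libraries, Vector replicate 1 or Vector replicate 3 left Sec24d as the 1 gene called lower. The median log2 fold change of the 31 was -0.03, and all 95% intervals lay between -0.34 (Sec24d) and 0.40 (Hspa13). Edem1 was 1.11-fold higher in the estimate (adjusted p = 0.053) and was called without Vector replicate 2 (0.011).

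With either substitution, most of these genes were lower than with Malt1_WT. In Malt1_V87R against Malt1_WT, 28 of 31 genes fell and 0 rose, while 24.9% of all genes were higher and 23.4% lower, with a median of -0.40 against 0.02 for all genes. In Malt1_L88D against Malt1_WT, 29 fell and 0 rose, while 22.8% of all genes were higher and 22.3% lower, with a median of -0.44. Hspa5 was at 0.423 and 0.399 times and Creld2 at 0.494 and 0.466 times the Malt1_WT level in Malt1_V87R and Malt1_L88D. Against Malt1_PD, 30 genes fell and 0 rose in Malt1_V87R (20.4% of all genes higher, 21.1% lower) and in Malt1_L88D (20% higher, 21.4% lower), with medians of -0.51 and -0.59. Hspa5 was at 0.358 times and 0.337 times the Malt1_PD level. In all 4 of these comparisons 0 genes of the list were higher at an unadjusted p under 0.05, with DESeq2 or with limma-voom. The share of all genes past that unadjusted threshold in either direction was 53.6% and 51.3% for Malt1_V87R and Malt1_L88D against Malt1_WT, and 47.9% and 47.8% against Malt1_PD. The gene called in none of the 4 was Hspa13, with log2 fold changes between -0.16 and 0.01.

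A few of these calls turned on 1 library. Against Malt1_WT, Dnajc3 in Malt1_V87R (edgeR adjusted p = 0.011) was lost without Malt1_WT replicate 3 (0.054), Ssr3 in Malt1_V87R was gained without Malt1_V87R replicate 2 (0.031) or Malt1_WT replicate 1 (0.039), and Sec61b in Malt1_L88D (0.018) was lost without Malt1_WT replicate 2 (0.061). Against Malt1_PD, Ssr3 in Malt1_L88D was lost without Malt1_L88D replicate 1 (0.055) or 2 (0.054) or Malt1_PD replicate 2 (0.083).

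Malt1_V87R was also set against Malt1_L88D. 0 of 31 were called in either direction, as were 0% of all genes, by edgeR, DESeq2 and limma-voom. At an unadjusted p under 0.05, 6 of the 31 were higher in Malt1_V87R and 0 lower, and 5.85% of all genes passed in either direction. The 3 Malt1_V87R libraries lay above the 3 Malt1_L88D libraries for 10 genes and below for 0, where 8.29% and 6.75% of all genes did so. Manf had the largest difference (1.11-fold, log2 fold change 0.15, 95% interval 0.05 to 0.25, adjusted p = 0.66), and the intervals of all 31 lay between -0.26 and 0.27, both for Hspa13.

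Genes of the same pathways outside the list were counted in the same way. For these counts, the share of all genes called against Vector was 7.01% higher and 4.7% lower in Malt1_V87R, 8.96% and 8.43% in Malt1_L88D, 22.8% and 22% in Malt1_PD, and 27.2% and 27.7% in Malt1_WT. Of 25 other ER folding and redox genes, 11 rose and 3 fell in Malt1_PD and 12 rose and 7 fell in Malt1_WT against Vector, while 0 rose and 1 fell in Malt1_V87R and 1 rose and 2 fell in Malt1_L88D. Ero1l, the oxidase that recharges disulfide isomerases, was at 853 ± 120 CPM in Malt1_PD, 1205 ± 54.2 CPM in Malt1_WT and 424 ± 45.1 CPM with Vector, and so was lower in Malt1_PD than in Malt1_WT (0.708-fold, edgeR adjusted p = 0.0031), unlike the 19 list genes called there. Its relative Ero1lb rose 1.97-fold in Malt1_PD. Cnpy3 fell to 0.858-fold in Malt1_PD and 0.781-fold in Malt1_WT. Of 27 tested further ERAD genes, 7 rose and 0 fell in Malt1_PD and 5 rose and 6 fell in Malt1_WT. With Malt1_V87R 0 rose and 0 fell, and with Malt1_L88D 0 rose and 2 fell. Selenos, a membrane selenoprotein of the retrotranslocation complex, rose 1.88-fold in Malt1_PD and 1.43-fold in Malt1_WT, and Fbxo6 fell in Malt1_WT (0.775-fold). The share of these ERAD genes that rose was near that of all genes in Malt1_PD and below it in Malt1_WT.

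Of 20 tested further translocation and signal peptide genes, 10 rose in Malt1_PD, 9 in Malt1_WT and 0 fell in either. With Malt1_V87R 1 rose and 0 fell, and with Malt1_L88D 1 rose and 2 fell. Srpr, the receptor of the signal recognition particle, rose 1.502-fold in Malt1_PD and was also called higher in Malt1_V87R (1.16-fold) and Malt1_L88D (1.18-fold). Of 18 N-glycosylation genes, 9 rose and 1 fell in Malt1_PD, and 5 rose and 6 fell in Malt1_WT. The rises in Malt1_WT lay near the share of all genes. With Malt1_V87R 0 rose and 1 fell, and with Malt1_L88D 0 rose and 4 fell, where 8.43% of all genes were lower. Gfpt1, which starts the synthesis of the sugar donor, rose 1.68-fold in Malt1_PD and 1.61-fold in Malt1_WT. Between Malt1_PD and Malt1_WT, 11 of the 18 N-glycosylation genes were higher and 0 lower in Malt1_PD, while 12.6% of all genes were higher and 10.7% lower. Of 22 COPII and ER-Golgi transport genes, 14 rose and 1 fell in Malt1_PD and 12 rose and 7 fell in Malt1_WT. With Malt1_V87R 0 rose and 1 fell, and with Malt1_L88D 1 rose and 2 fell. Sec23b, a coat subunit, rose 1.51-fold and 1.42-fold, and the retrieval receptor gene Kdelr1 fell to 0.902-fold and 0.756-fold. It also fell in Malt1_V87R (0.882-fold) and Malt1_L88D (0.887-fold).

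The neighbouring arm of the response is that of PERK, a kinase that slows translation, and of the transcription factor ATF4. Of its 16 tested genes, 14 rose and 0 fell in Malt1_PD and 13 rose and 1 fell in Malt1_WT, but 8 rose and 2 fell both in Malt1_V87R and in Malt1_L88D, against Vector, where 22.8%, 27.2%, 7.01% and 8.96% of all genes were higher in Malt1_PD, Malt1_WT, Malt1_V87R and Malt1_L88D. Slc7a11, the cystine transporter, was at 57.7 ± 2.91 CPM in Malt1_V87R, 58.5 ± 0.796 CPM in Malt1_L88D, 105 ± 16.01 CPM in Malt1_PD, 167 ± 9.59 CPM in Malt1_WT and 26.7 ± 4.47 CPM with Vector. Its rise over Vector was thus 2.17-fold and 2.20-fold with the substitutions, in which no gene of the ER list was called higher. Slc7a11 does not stand for the whole arm. The 2 genes of the arm that fell were Ppp1r15a (0.887-fold in Malt1_V87R, 0.870-fold in Malt1_L88D) and Psat1 (0.930-fold and 0.917-fold). Between Malt1_PD and Malt1_WT, 2 of the 16 were higher and 6 lower in Malt1_PD, while 12.6% of all genes were higher and 10.7% lower. The count of those higher lay near that share. Of 10 tested further sensors and proteases of the response, 1 rose and 1 fell in Malt1_PD and 4 rose and 2 fell in Malt1_WT. With Malt1_V87R 1 rose and 0 fell, and with Malt1_L88D 1 rose and 2 fell. Mbtps1, the protease that first cuts ATF6 in the Golgi, fell to 0.783-fold in Malt1_PD and 0.729-fold in Malt1_WT, and Creb3l2 rose 1.37-fold in Malt1_PD. The lists were counted only, and no test of a list as a whole was made.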

How the data were processed

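Gene-level read counts of 15 libraries were deposited by the authors as 1 table of whole-number counts that are not normalized. Per the labels' protocols, total RNA was made into directional paired-end libraries. Per the submitters' processing notes, the tools were Trim Galore 0.6.0, STAR 2.7.3a and featureCounts 1.6.3 with build GRCm38.p6; for the annotation release, the strand setting and multi-mapping reads nothing is stated in those notes, so it is not known whether the counts separate overlapping genes on opposite strands. The 3 columns headed Malt1_C461A were assigned to Malt1_PD as the one group left without columns.

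All 15 libraries were fitted together in R 4.3.3 with edgeR 4.0.16 (TMM scaling, filterByExpr, robust quasi-likelihood fit, two-sided tests), with Benjamini-Hochberg adjustment over the 14571 genes kept and a threshold of 0.05. CPM were computed on TMM-scaled totals, and RPKM divide these by the exonic length from GENCODE vM21. The biological coefficient of variation was 4.61%. The edgeR fit was tested on simulated counts for Malt1_WT against Vector, with far fewer changed genes than were called in the data. The other steps were not tested in this way. Promoter sequences are RefSeq's, build GRCm38.p6. Alternatives were DESeq2 1.42.0, limma-voom (limma 3.58.1), RLE and upper-quartile scaling, no filter, only the 6 libraries compared, a replicate block and each library left out. Leaving out both replicate 2 libraries of Malt1_PD and Vector was chosen after seeing the data.

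Every gene of the list was named; of each other list, up to 2 rises and 2 falls per comparison, largest first, among called genes whose libraries did not overlap. The members and lists were chosen with earlier results of these data known.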

Additional observations from a re-analysis of the deposited data

How the results depend on the processing

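Over the gene-level values recomputed under every alternative, 4253 of 4340 kept their direction and their side of the threshold, 34 passed it newly, 53 no longer passed it and none reversed. The count of genes higher in Malt1_PD than in Malt1_WT ran from 16 to 21, and from 16 to 18 with 1 library left out. Against Vector it ran from 30 to 31 in Malt1_PD and from 27 to 28 in Malt1_WT with 1 library left out. The near-zero counts moved most. In Malt1_L88D against Vector, 1 gene (Edem1) was higher without the filter, with only the 6 libraries, with upper-quartile scaling and with the replicate block, 3 without both replicate 2 libraries, and 0 to 1 with 1 library left out. The count lower there was 3 with upper-quartile scaling, 4 with only the 6 libraries, 6 without both replicate 2 libraries (Herpud1 added, adjusted p = 0.045) and 1 to 5 with 1 library left out. In Malt1_V87R against Vector, 1 was higher without the filter and with the replicate block, 0 to 1 with 1 library left out, and 3 higher and 1 lower without both replicate 2 libraries. The cause was not tested. Replicate numbers were not shown to pair the libraries, since same-numbered libraries did not all correlate above 0.1 in any comparison. Between Malt1_WT, Malt1_PD and Vector, however, replicates 1 and 2 correlated best with their own number (0.103 to 0.233), and replicate 3 did not. Malt1_V87R replicate 2 also correlated best with replicate 2 of Malt1_PD (0.14), Vector (0.116) and Malt1_WT (0.0692). A shared replicate effect among these groups, Malt1_V87R included, therefore remains possible and was not tested. With the replicate block 5 gene-level calls were gained and 0 lost. Atf6 and Derl3, at up to 11 counts, had too few counts for a difference to be detectable at this depth.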

Other observations

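Outside the list, 38 genes had an ERSE or ERSE-II in the promoter window, and 19 of them were found by symbol among the tested genes. Carriers with another symbol in the count data were missed. Among these was Ero1b, which the count data name Ero1lb. Ero1lb rose 1.97-fold in Malt1_PD against Vector (edgeR adjusted p = 2.5e-11) and is not part of the 19. In Malt1_PD against Vector 6 of the 19 rose and 3 fell, and in Malt1_WT against Vector 6 rose and 4 fell (edgeR, adjusted p under 0.05). Of all genes tested, 22.8% were higher and 22% lower in Malt1_PD, and 27.2% higher and 27.7% lower in Malt1_WT. The counts of the 19 genes lie near those shares. These genes are few and do not include Ero1lb, and the part of the element was not tested.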
